A study of Mus musculus with 4 samples.

Results

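CD8 T cells were described among dispersed pancreatic islet cells of NOD mice aged 5 weeks, a strain that develops autoimmune diabetes. They were chosen from transcript counts, as barcodes with at least 500 genes, at most 20% mitochondrial unique molecular identifiers (UMIs, each standing for 1 captured transcript), at least 2 UMIs over Cd3d, Cd3e and Cd3g, at least 1 of Cd8a or Cd8b1, 0 of Cd4, under 2 of Cd79a and under 10% from islet hormone genes. The rule found 74 cells among 16146 filtered cells (0.458%) of 19987 barcodes. The study held 2 samples labelled Xbp1{beta}-/-, with Xbp1 removed from beta cells, and 2 labelled Xbp1fl/fl, which carried the floxed allele. Mice of both genotypes received tamoxifen (10 mg/ml, on 5 days), the agent that switches on the Cre recombinase, and the labels do not name the Cre driver. Islets were picked by hand and kept in culture overnight before 10x single-cell RNA-seq. All cells were deposited in 1 matrix with 4 numbered libraries, and no number could be tied to a sample or genotype. The genotypes were therefore not compared, no test was run, and each library is given as 1 value without an order.

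CD8 T cells are lymphocytes that recognise peptides on MHC class I molecules through an alpha beta T cell receptor, with the CD8 alpha and beta chains as coreceptor. Naive cells circulate through lymph nodes, guided among others by the chemokine receptor Ccr7, and depend on the transcription factors Lef1 and Tcf7. Cells that have met antigen take up effector genes, among them granzymes, perforin, Nkg7 and the chemokine Ccl5. In NOD islets CD8 T cells are known for killing beta cells.

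Library 1 held 34 CD8 T cells, or 0.935% of its filtered cells (exact binomial 95% interval 0.649 to 1.30%). Library 2 held 9 (0.171%, 0.0781 to 0.324%), library 3 held 28 (0.810%, 0.539 to 1.17%) and library 4 held 3 (0.0792%, 0.0163 to 0.231%). Libraries 1 and 3 were high and libraries 2 and 4 low, and the intervals of the high libraries did not overlap those of the low ones. T cells without CD8 transcripts, chosen by the same rule with 0 UMIs of Cd8a, Cd8b1 and with or without Cd4, numbered 177, 46, 129 and 5. CD8 T cells thus made up 16.1%, 16.4%, 17.8% and 37.5% of the T cells of libraries 1 to 4. The last was 3 of 8 cells, with an interval from 8.52 to 75.5%. Of all 357 T cells without CD8 transcripts, 153 had a Cd4 UMI. This class can hold CD8 T cells whose coreceptor transcripts were not captured, so the shares among T cells depend on depth. With hormone genes held under 2% of UMIs in place of 10%, library 2 fell to 0.019% and library 4 to 0, while libraries 1 and 3 stood at 0.880% and 0.752%. The share among T cells was nearly level over the libraries with more than 8 T cells, while the share among all cells was not. All intervals cover counting error only.

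**Figure D1:**
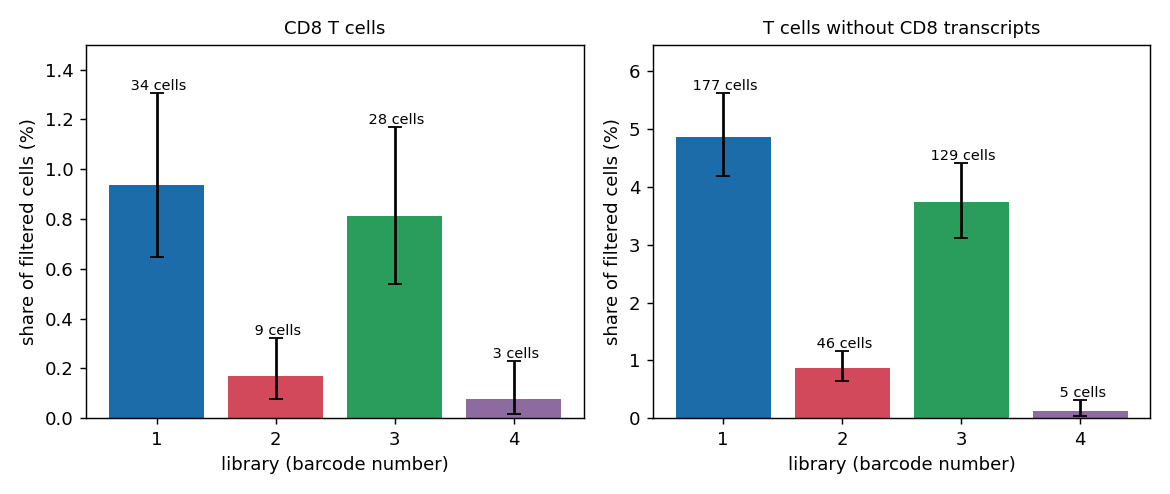
Bars give the share of filtered cells (%) in each numbered library for CD8 T cells (left) and T cells without CD8 transcripts (right), with exact binomial 95% intervals and cell numbers. Both classes were frequent in libraries 1 and 3 (34 and 28 CD8 T cells) and scarce in libraries 2 and 4 (9 and 3).

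The 74 cells held 525310 UMIs, with a median of 4564 per cell (1730 to 30063), against medians of 4084 in the 357 T cells without CD8 transcripts and 4411.5 in 1190 B cells. Their median depth in libraries 1 to 4 was 5619.5, 4445, 2838.5 and 2528 UMIs. Islet hormone genes took a median of 0.272%, 4.60%, 0.415% and 2.82% of their UMIs, and Ins2, which T cells do not transcribe, was found in 72 of the 74 cells. Insulin transcripts were thus present in nearly all of these T cells, at the highest share in libraries 2 and 4, where CD8 T cells were scarce. None of the 74 barcodes recurred in another library (0), while 56 barcodes did among all filtered cells.

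The coreceptor genes and Cd3 genes were set by the rule, so their counts describe the members and check nothing. Cd8b1 was found in 64 cells (86.5%) and Cd8a in 47 (63.5%), with both in 37, Cd8b1 alone in 27 and Cd8a alone in 10. Their genes are neighbours on chromosome 6 of GRCm38, Cd8b1 at chr6:71322788-71337494 and Cd8a at chr6:71373427-71379173, both on the plus strand. Of the markers that the rule did not use, the receptor's constant segments were found in most members, Trac in 86.5% of the cells and Trbc2 in 95.9%. The same segments were found in 0.252% and 0.588% of B cells, which served as a background of free RNA at nearly the same depth. B cells were chosen with 0 UMIs of the Cd3 genes, so these shares can understate T cell RNA picked up by a barcode. By library the B cells numbered 648, 29, 512 and 1, so libraries 2 and 4 were hardly covered. A Cd8a or Cd8b1 UMI was found in 4 of 1190 B cells. Of 7 NK cell genes, Ncr1, Klrb1c, Klra8 and Klra4 were at 0 UMIs in the CD8 T cells, which allows up to 5.71 CPM (UMIs per 1000000 UMIs of the class, with 3 counts as the floor). The other 3 had UMIs, Eomes, a T-box factor also of memory CD8 T cells, 12 in 8 cells, and the adaptor genes Fcer1g and Tyrobp, which myeloid cells share, 63 in 7 cells and 29 in 7 cells. The 7 genes summed to 198 CPM in the members, 238 CPM in the other T cells and 103 CPM in B cells. Of 8 helper and regulatory T cell genes, 7 had UMIs in the members and Cd4 was held at 0 by the rule. The 8 genes summed to 609 CPM in the members, 974 CPM in the other T cells and 17.8 CPM in B cells. At least 5 UMIs of them were found in 17 members. Of these genes the helper lineage factor Zbtb7b had 3 UMIs in 3 cells, and Foxp3, Icos and Ikzf2 are given below.

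The membership rule turned on few UMIs in part of the cells. Of the members, 21 had exactly 1 coreceptor UMI, at a median depth of 3341 UMIs, and 53 had more, at 5134. Trbc2 stood at 913 CPM in the former and 1218 CPM in the latter, and Trac at 316 and 386 CPM. Cells just inside the threshold thus also carried receptor transcripts. T cells without CD8 transcripts carry them too, so they cannot tell whether these cells were CD8 T cells. Nkg7 stood at 127 and 326 CPM in the 2 groups, Lef1 at 326 and 352 CPM and Fscn1 at 705 and 502 CPM. Just outside it, 0 cells missed only by 1 Cd3 UMI, 0 by Cd79a, 0 by hormone genes and 6 by a Cd4 UMI. Those 6 cells had Trbc2 at 1205 CPM and Lef1 at 27.8 CPM.

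Markers of dendritic cells stood beside T cell transcripts in a few members. In 8 cells (6 of library 1, 1 of library 2 and 1 of library 3) at least 0.5% of UMIs came from markers of B, plasma, myeloid, mast, endothelial, stromal, ductal, acinar or Schwann cells, between 0.676 and 2.97%, while no other member passed 0.385%. The 12 dendritic markers summed to 14703 CPM in these 8 cells and 210 CPM in the other 66. The 7 NK cell genes summed to 691 CPM in the 8 and 35.4 CPM in the 66. Of the 12, Flt3, Xcr1, Clec9a, Fscn1, Ccl22 and H2-Aa were at 0 in the 66. Fscn1, a gene of mature dendritic cells, was found in 6 of the 8. It stood at 1765 CPM in the 10 members with Cd8a alone, 0 in the 27 with Cd8b1 alone and 450 CPM in the 37 with both. Trac stood at 147, 391 and 421 CPM in these groups. All 8 cells had at least 5 UMIs of MHC class II genes and 2 to 22 Cd3 UMIs. They held 24.8% of all member UMIs and were among the deeper cells, at 11956 to 23672 UMIs. No doublet caller was run, and whether each barcode held more than 1 cell was not tested. Of the T cells without CD8 transcripts, 54 of 357 passed the same limit, with ductal markers at 8637 CPM and acinar markers at 5757 CPM over the class and 164 and 39.3 CPM without the 54 cells. The calls over all genes, and many lists and genes, are therefore also given in a restricted set of 66 CD8 T cells and 303 other T cells. This set leaves out these 8 and 54, a step chosen after seeing the data. Lists and genes without a restricted value are given for all cells only.

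**Figure D2:**
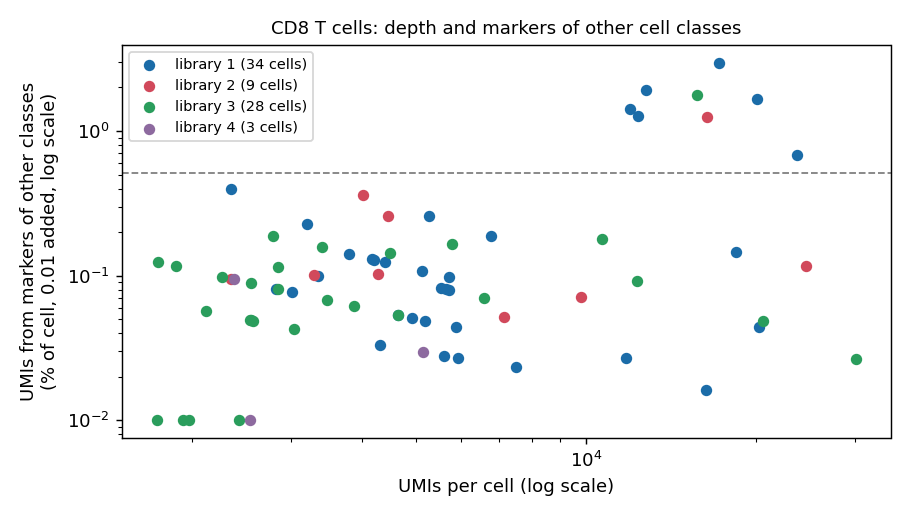
Each point is 1 CD8 T cell, with its UMIs (x axis, log scale) against the percent of them from markers of other cell classes (y axis, log scale, 0.01 added), coloured by library. The 8 cells above the dashed line at 0.5% lie between 11956 and 23672 UMIs and 6 of them belong to library 1.

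Against T cells without CD8 transcripts, CD8 T cells had higher levels of 7 of 18 naive and central memory genes and of 4 of 18 cytotoxic genes tested. Lower levels were found for 5 of 24 genes on the inhibitory receptor and exhaustion list, among them the costimulatory receptor genes Tnfrsf4 and Icos. A gene was called where its level, in CPM of summed UMIs with 10 CPM added, differed at least 2-fold over all cells and had the same sign in libraries 1 and 3, the ones with at least 20 cells of both classes. Of 9937 genes with at least 20 UMIs in either class, 77 (0.775%) were called higher and 510 (5.13%) lower, and the median log2 ratio of all genes was -0.09. The limit of 20 UMIs is a lower level in the other T cells, with 3422773 UMIs, than in CD8 T cells, with 525310. Genes could thus enter more easily through the other T cells, and the numbers called higher and lower are not comparable. In the restricted set, 43 of 7931 genes were higher (0.542%) and 433 lower (5.46%), with a median of -0.15. Only 32 genes were called higher both ways, which is 41.6% of the former list and 74.4% of the latter. For lower genes 188 were shared, 36.9% and 43.4% of the lists. Without library 3, which leaves the sign to library 1 alone, 177 genes were called higher, and with 1 CPM added in place of 10 CPM 174 were called higher and 1332 lower. Because the members were chosen from these counts, the calls are a description and no p-value belongs to them.

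Dapl1, a gene known from naive CD8 T cells, had the largest ratio of the named genes outside the coreceptors (log2 3.03). It stood at 131 CPM against 7.30 CPM, with 122, 0, 220 and 0 CPM in libraries 1 to 4. Its 69 UMIs came from 17 cells, and 1 cell held 44.9% of them, so its level rests on few cells. Lef1 stood at 346 CPM (exact Poisson 95% interval 298 to 401 CPM) against 133 CPM (log2 1.32, 1.01 in the restricted set) and was found in 54 of 74 cells. Tcf7 was at 308 CPM against 147 CPM (log2 1.02), a ratio that was 0.56 in the restricted set and then missed the call. Lef1 was at 340, 52.5, 471 and 797 CPM in libraries 1 to 4 and was lowest in library 2.

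Of the 18 naive and central memory genes, 7 were higher and 0 lower, with a median log2 ratio of 0.75 against -0.09 for all genes. The 7 were Klf2, Lef1, Tcf7, Dapl1, Bach2, Cd55 and Nsg2. Klf2, a transcription factor of resting T cells, was the most abundant of the list at 615 CPM against 268 CPM. The restricted set had 4 of 18 higher and the median was 0.58. Ccr7 was at 592 CPM with all cells and 299 CPM in the restricted set, and mature dendritic cells are known to carry it too. Its log2 ratio was 0.60 and 0.87, below the call both times.

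Nkg7, a granule membrane protein of cytotoxic cells, stood at 284 CPM (240 to 333) in CD8 T cells, 54.6 CPM in the other T cells and 0 in B cells. Its levels were 293, 407, 195 and 498 CPM in libraries 1 to 4, and it was found in 34 of 74 cells. All libraries held it, and the log2 ratio was 2.18, or 2.01 in the restricted set. Klrd1, which encodes the NK receptor chain CD94, stood at 204 CPM against 23.1 CPM (log2 2.69, 2.58 restricted), with 125, 368, 251 and 399 CPM by library. Ctsw, a cathepsin of cytotoxic lymphocytes, stood at 179 CPM against 56.1 CPM (log2 1.52, 1.39 restricted), but at log2 0.59, below the call, when the CPM of single cells were averaged. It was found in 35 cells, 22 of which also had Nkg7.

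Xcl1 and Ccl4, chemokines of activated CD8 T cells and NK cells, were also called higher, but from few cells. Xcl1 had 92 UMIs in 6 cells (2 each in libraries 1 to 3), 54.3% of them in 1 cell, at 175 CPM against 17.5 CPM, and its log2 ratio of 2.75 was 0.98 when the CPM of single cells were averaged. Ccl4 had 24 UMIs in 5 cells, 45.8% in 1. The other genes with the largest ratios were Fam241a (211 CPM against 31.0, in 43 cells), the long noncoding RNA gene Gm2682 (120 against 24.2, in 38 cells), Gm26917 (267 against 73.0, in 37 cells) and the Tec family kinase Txk (213 against 68.1, in 48 cells). These 4 kept a log2 ratio of 1.23 or more in the restricted set. Ccr9, a gut homing receptor that plasmacytoid dendritic cells also carry, was called higher at log2 2.36, with 65.5% of its UMIs in 1 cell of library 3. In the restricted set it was at 0.88 and not called. Ifit1bl1, an interferon-stimulated gene, was the last of the 12 (log2 1.48), from 21 UMIs in 4 cells with 85.7% of them in 1, and was at -0.09 in the restricted set, with too few UMIs to be tested, 0.09 with single cells averaged and 0.25 without library 1.

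Of 12 genes with the largest ratios, 7 have a start site in the RefSeq promoter table used here (build GRCm38.p6). The 250 bases before the start are printed for 3 of them, a granule gene, a chemokine and the naive gene with the largest ratio, because these were called higher together. They are written 5' to 3' on the gene's own strand. Capitals mark ACCACA, which is TGTGGT on the opposite strand, the core letters of RUNX factor sites.

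Nkg7, chr7:43436888-43437137, plus strand: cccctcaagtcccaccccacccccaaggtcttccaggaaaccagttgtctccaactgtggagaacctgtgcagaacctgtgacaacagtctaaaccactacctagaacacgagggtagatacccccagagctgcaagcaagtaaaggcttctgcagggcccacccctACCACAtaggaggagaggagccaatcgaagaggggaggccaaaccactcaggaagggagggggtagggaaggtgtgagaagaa
Xcl1, chr1:164935523-164935772, minus strand: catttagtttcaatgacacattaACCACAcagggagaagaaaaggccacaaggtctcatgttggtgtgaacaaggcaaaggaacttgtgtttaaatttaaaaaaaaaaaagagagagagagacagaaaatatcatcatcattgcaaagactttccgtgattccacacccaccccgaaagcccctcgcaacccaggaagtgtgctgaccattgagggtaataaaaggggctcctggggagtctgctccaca
Dapl1, chr2:59484403-59484652, plus strand: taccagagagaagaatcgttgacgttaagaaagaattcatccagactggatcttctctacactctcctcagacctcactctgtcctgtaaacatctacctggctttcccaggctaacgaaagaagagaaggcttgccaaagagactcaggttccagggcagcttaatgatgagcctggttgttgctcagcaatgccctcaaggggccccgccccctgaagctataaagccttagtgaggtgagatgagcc

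On both strands, TGTGGT was found in 14.0% of all 32851 promoters of this length, and in 4 of the 7 genes (Nkg7, Xcl1 and 1 of 2 starts each of Txk and Ifit1bl1). CTTTGAT, core letters of TCF and LEF sites, was found in 3.21% of all promoters and in 0 of the 7 genes. The percentages are per promoter, while a gene was counted if any of its starts matched, so they are not the same measure. Neither motif contains the other. Runx3, the RUNX factor of the CD8 lineage, stood at 251 CPM in CD8 T cells and 100 CPM in the other T cells (log2 1.25, 1.21 in the restricted set). A match is a description of letters, and no binding was measured.

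**Figure D3:**
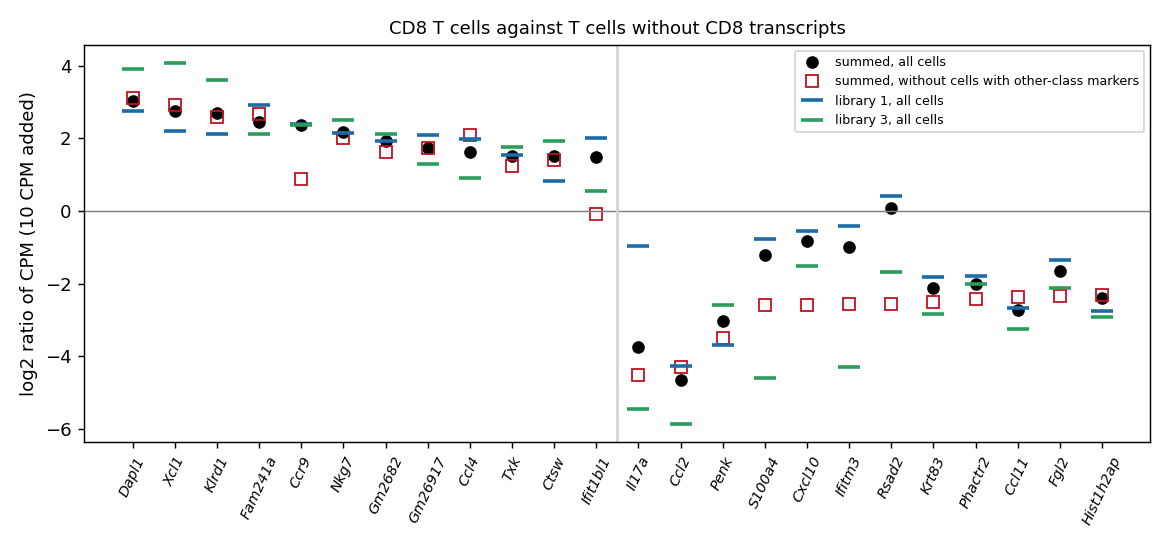
Points give the log2 ratio of CPM (10 CPM added) in CD8 T cells over T cells without CD8 transcripts, summed over all cells (black), without cells carrying other markers (red squares) and within libraries 1 and 3 (dashes). Left of the line are the 12 genes with the largest ratios among those called higher with all cells, from Dapl1 at 3.03, and right of it the 12 with the lowest among those called lower without such cells, from Il17a at -4.50, which had 0 UMIs in CD8 T cells.

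The genes lowest in CD8 T cells over all cells belonged mainly to acinar and ductal cells. They included Clu (22.8 CPM against 2002), Lcn2, Krt8, Timp1, Cela3b, Sycn and Cpb1, and the ductal and acinar marker lists moved with them as given above. In the restricted set Clu had a log2 ratio of -0.57 in place of -5.94. The lowest genes of the restricted set included Il17a, Penk, S100a4 and Krt83, whose levels follow for all cells. Il17a, the cytokine of type 17 T cells, had 0 UMIs in CD8 T cells and 124 CPM in the other T cells (217 CPM in the restricted set), from 1.40% of them. A count of 0 in 74 cells allows a share of up to 4.05%, so a difference in the share of cells was not detectable at this depth. Penk, the enkephalin precursor, stood at 3.81 CPM against 104 CPM in 9.52% of the other T cells, and S100a4, a gene of memory and activated T cells, at 118 CPM against 288 CPM (log2 -1.22, -2.60 restricted). The keratin gene Krt83 had 1 UMI in CD8 T cells and was found in 15.7% of the other T cells.

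Few T cell receptor genes were called between the T cell classes. Of 25 receptor and proximal signalling genes, 1 was higher (Txk) and 0 lower, with a median of 0.45 that was 0.10 in the restricted set. Trbc2 was most abundant at 1154 CPM against 835 CPM, then Cd3g at 838 against 678 and Ptprc at 756 against 448. Trbc1 and Trbc2 are near-identical, so reads could be split between them. Against B cells 21 of 24 tested genes of the list were higher and 0 lower, of which Cd3d, Cd3e and Cd3g were set by the rules of both classes, and 18 of 21 were higher without them, where 420 of 10942 genes (3.84%) were higher and 510 (4.66%) lower. In B cells Zap70 and Cd6 were at 0 CPM.

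Granzymes, perforin and interferon gamma were sparse. At least 1 UMI of a granzyme or perforin was found in 20 of 74 cells (27.0%, 17.4 to 38.6%), against 21.3% of the other T cells and 1.43% of B cells. Together they had 50 UMIs, with at most 8 in a cell. Gzmb had 20 UMIs in 8 cells and was called lower, at 38.1 CPM against 141 CPM (log2 -1.65). Gzma had 14 UMIs in 3 cells, Gzmk 10 in 5 cells and Prf1 6 in 6 cells. Ifng had 0 UMIs, which allows up to 5.71 CPM, and stood at 2.92 CPM in the other T cells, so a difference was not detectable at this depth.

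Ccl5 was abundant but held by few cells. It had 659 UMIs in 20 cells (1254 CPM against 864.5 CPM in the other T cells), with 1383, 1864, 144 and 10663 CPM in libraries 1 to 4. The last value came from 1 cell, and library 3 stood below the others. Of the 20 cells, 6 were among the 8 with dendritic markers and held 351 of the UMIs, and B cells with Ccl5 were 2.77%. The log2 ratio was 0.53 with all cells and 1.57 in the restricted set, where Ccl5 was called. Of the 26 cytotoxic genes, 18 were tested, 4 were higher (Nkg7, Ctsw, Xcl1 and Ccl4) and 1 lower (Gzmb), with a median of 0.26 over all libraries, 0.33 in library 1 and -0.97 in library 3. Of 17 tested in the restricted set 4 were higher and 5 lower, with a median of 0.00.

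**Figure D4:**
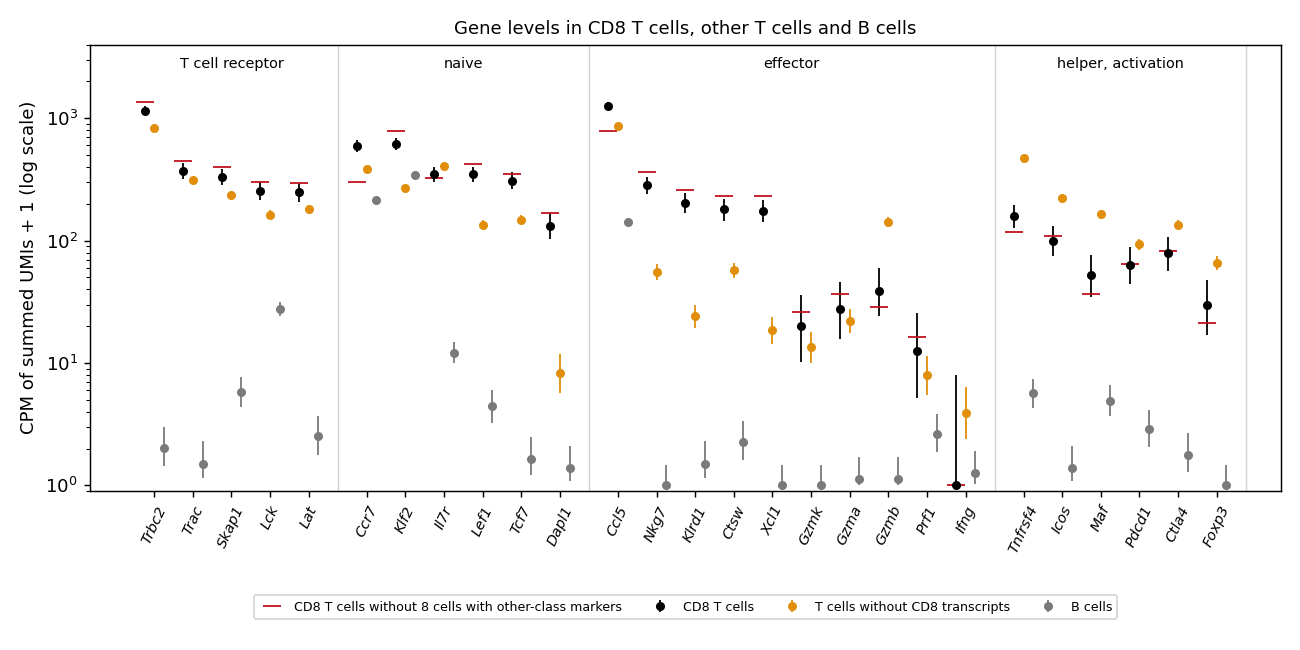
Levels (CPM + 1, log scale) of T cell receptor, naive, effector and activation genes in CD8 T cells (black), T cells without CD8 transcripts (orange) and B cells (grey), with exact Poisson 95% intervals, and in CD8 T cells without the 8 cells carrying other markers (red dashes). Dapl1, Nkg7, Klrd1 and Xcl1 stand above the other T cells and Tnfrsf4, Icos and Maf below.

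Some genes of the inhibitory receptor and exhaustion list were lower, among them costimulatory receptor genes. Tnfrsf4, the costimulatory receptor OX40, stood at 158 CPM against 476 CPM (log2 -1.53, -2.25 in the restricted set). Icos, another costimulatory receptor, stood at 99.0 CPM against 221 CPM (log2 -1.08 and -1.37). Both were found in few members, Tnfrsf4 in 14 and Icos in 21. Of the 24 inhibitory receptor and exhaustion genes, 0 were higher and 5 lower (Tnfrsf4, Icos, Maf, Batf and Tox2), with a median of -0.59, and in the restricted set 8 of 20 were lower with a median of -0.87. Pdcd1, which encodes PD-1, was found in 10 members (13.5%, 6.68 to 23.5%) and in 34.2% of the other T cells. It was at 39.3, 131, 25.1 and 797 CPM by library, the last from 1 cell of library 4. The difference was below the call (log2 -0.49).

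Foxp3, the regulatory T cell factor, had 15 UMIs in 10 CD8 T cells, 5 of them among the 8 with other markers, against 75 of the 357 other T cells. At 2 or more UMIs it was found in 3 members and 14.0% of the other T cells. Ikzf2, the transcription factor Helios, was nearly level between the classes, at 282 CPM in 22 members against 312 CPM.

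Residency, NK receptor and trafficking genes were mixed. Over all genes 0.775% were called higher and 5.13% lower, or 0.542% and 5.46% in the restricted set. At 1 gene of 17, the trafficking genes called lower over all cells were near that share. Xcl1, Runx3, Lef1 and Tcf7 each sit on more than 1 list, so the same calls recur between lists. Of 16 tissue residency genes, 3 were higher (Vps37b, Runx3 and Xcl1) and 2 lower (Bhlhe40 and Litaf), with a median of -0.64. The restricted set had 2 of 15 higher and 5 lower, with a median of -0.30. Cd69, an early activation and retention marker, stood at 211 CPM against 110 CPM, with 45.0% of its UMIs in 1 cell, and Rgs1 at 442 against 708, both below the call. Of 9 NK receptor genes tested, Klrd1 and Cd7 were higher and 0 were lower, with a median of -0.09. NK receptor genes in the restricted set were 1 of 8 higher and 3 lower, with a median of -0.55. Of 17 trafficking genes tested, Ccr9 was higher and Cd44, the hyaluronan receptor of memory cells, was lower (59.0 CPM against 130, log2 -1.02). Trafficking genes in the restricted set were 0 of 17 higher and 3 lower, with a median of -0.44. Among 21 cytokine receptors 0 were higher and Il18r1 and Il12rb1 lower, against 0 higher and 3 lower of 20 in the restricted set. Il7r, the survival receptor of naive and memory cells, stood at 348 CPM against 404. Of 22 lineage transcription factors, Lef1, Tcf7, Runx3 and Myb were higher and 0 lower. The restricted set gave 2 of 22 higher and 2 lower.

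Over all cells, some interferon-stimulated genes and no MHC class I gene were called against the other T cells. The share of all genes called was 0.775% higher and 5.13% lower, or 0.542% and 5.46% in the restricted set. Of 31 interferon-stimulated genes 3 were higher (Ifi214, Ifit1bl1 and Ifi206) and 0 lower, with a median of 0.32, which turned to -0.20 in the restricted set, when 0 were higher and 4 of 30 lower. Isg15, a ubiquitin-like modifier, stood at 512 CPM in all members and 172 CPM in the 66 cells without other markers, with 869, 26.3, 138 and 199 CPM by library. Of 18 MHC class I genes 0 were called either way, and B2m stood at 2395 CPM against 2163. Their median of 0.23 turned to -0.21 in the restricted set, when 0 of 18 were higher and 1 lower. Against B cells 14 of 31 interferon-stimulated and 5 of 18 MHC class I genes were higher and 0 lower. For all genes these shares were 3.84% higher and 4.66% lower.

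Of 20 genes of the unfolded protein response, the pathway to which Xbp1 belongs, 6 were lower than in the other T cells and 14 were not called. Xbp1 had 11 UMIs in 8 CD8 T cells (20.9 CPM, 10.5 to 37.5), at 10.7, 13.1, 43.9 and 0 CPM in libraries 1 to 4. It stood at 64.3 CPM in the other T cells and 39.8 CPM in B cells. These cells are not the ones in which the labels place the deletion, so the values check no genotype. The 6 were Hspa5, Hsp90b1, Pdia6, Pdia4, Xbp1 and Creld2, and 0 were higher, with list medians of -0.75 over all libraries, -1.03 in library 1 and -0.38 in library 3. The chaperone Hspa5 (BiP) stood at 358 CPM against 1039 CPM (log2 -1.51). Of 19 tested in the restricted set 7 were lower, with a median of -0.66, and Xbp1 was at -0.66 and not called. Against the 153 T cells with Cd4 and no CD8 transcripts 0 of 19 were called either way (median -0.58), where 94 of 8296 genes (1.13%) were higher and 450 (5.42%) lower.

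Of 27 immediate early genes 7 were lower over all cells (Fos, Jun, Egr1, Ier3, Dusp1, Atf3 and Fosb) and 0 higher, against 2 lower of 23 in the restricted set. Egr1 stood at 19.0 CPM against 289 CPM, at log2 -3.36 and -1.27. Fos, at log2 -1.97 over all cells, was at 1.01 in that set, on the other side of 0. Of 20 proliferation genes 0 were higher and 4 lower (Pclaf, Tyms, Cdk1 and Rrm2), and 4 members (1 in library 1, 1 in library 2 and 2 in library 3) had at least 5 UMIs over Mki67, Top2a and Ube2c. Of 8 gamma delta receptor genes tested 0 were higher and 5 lower, and 3 members had at least 5 UMIs of gamma delta constant genes against 9.80% of the other T cells. Trdc, the delta constant gene, was in 1 member with 11 UMIs.

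Most CD8 T cells carried naive transcripts, and many carried effector transcripts in the same cell. At least 1 UMI of Ccr7, Lef1 or Dapl1 was found in 65 of 74 cells (87.8%) and of Gzma, Gzmb, Gzmk, Prf1, Nkg7, Ccl5, Ifng or Fasl in 49 (66.2%). Both sets were found in 44 cells, naive transcripts alone in 21, effector transcripts alone in 5 and neither in 4. To compare across depths, the share expected after thinning every cell to 1500 UMIs was computed, with 0 CD8 T cells left out as shallower, 4 other T cells and 28 B cells. At that depth 69.1% of CD8 T cells (57.1 to 79.2%) carried the naive set, against 45.5% of the other T cells (40.3 to 51.0%) and 30.6% of B cells, which use Ccr7. The effector set was carried by 49.4% (38.1 to 61.9%), 30.2% (25.6 to 35.4%) and 1.67%. Pooled over libraries, both shares were thus above those of the other T cells, with intervals that did not overlap. The restricted set gave 67.5% and 46.5%, against 44.2% and 25.1%. The intervals cover counting error over pooled cells only. In library 3 the effector share of CD8 T cells was not above that of the other T cells (22.5% against 24.6%).

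The share of cells with effector transcripts is given by library, each of which gives 1 value, with intervals that cover counting error only. Thinned shares with effector transcripts were 65.3% (46.5 to 80.3%) in library 1, 67.5% in library 2, 22.5% (8.30 to 41.0%) in library 3 and 66.7% in library 4. Library 3 was the low one, and its interval did not overlap that of library 1, while libraries 2 and 4 rest on 9 and 3 cells. For the restricted set the shares of libraries 1 and 3 were 61.6% (40.6 to 78.5%) and 23.3% (8.62 to 42.3%), whose intervals overlap. Thinned shares with naive transcripts were 73.1%, 27.3%, 78.4% and 62.1%. Library 2 was lowest, but its interval ran from 2.81 to 60.0%. In the other T cells effector shares were 34.5% in library 1 and 24.6% in library 3, so CD8 T cells stood above them in library 1 and not in library 3. Naive shares of the other T cells were 40.4% and 54.7% in these libraries, both below those of CD8 T cells. Without library 1 the effector share of CD8 T cells was 35.9%, and without library 3 it was 65.8%.

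**Figure D5:**
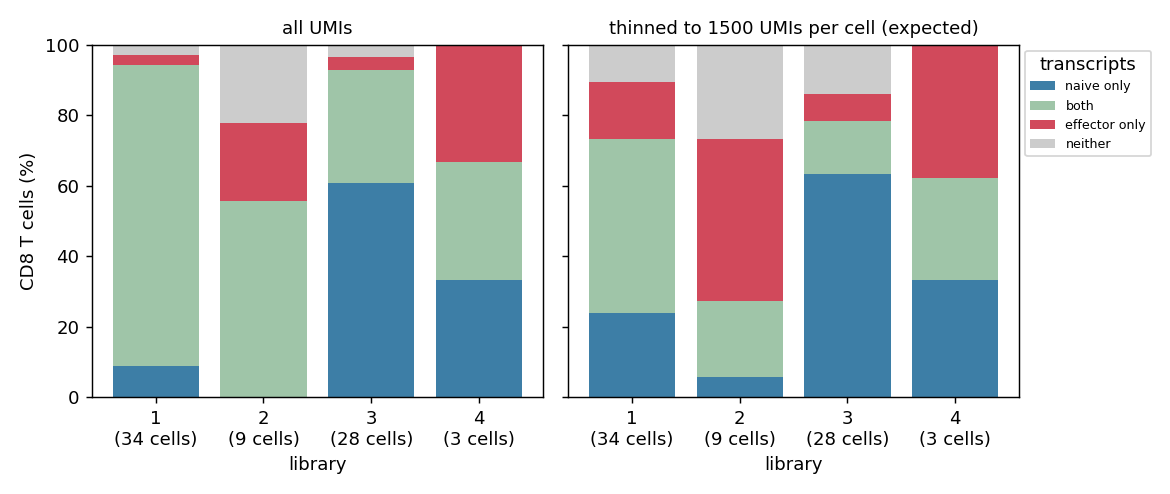
Stacked bars give the percent of CD8 T cells of each library with naive transcripts only, both sets, effector transcripts only or neither, with all UMIs (left) and as calculated for thinning to 1500 UMIs per cell (right). In library 3, effector transcripts took 22.5% of cells after thinning, against 65.3% in library 1.

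Pairs of genes were also counted cell by cell. Lef1 was found in 54 cells and Nkg7 in 34, with both in 27. Ccr7 and Nkg7 were found together in 22 cells, and Lef1 and Tcf7 in 43. Ccl5 shared 10 of its 20 cells with Lef1 and 12 with Ccr7, or 7 and 6 of 14 cells in the restricted set, and Pdcd1 was found with Ccl5 in 7 of 10 cells. These counts depend on depth and are given without a test.

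Between libraries 1 and 3, the only ones with at least 20 CD8 T cells, 99 of 1865 genes at 100 CPM or more (5.31%) differed at least 4-fold. In the restricted set 36 of 1726 (2.09%) did, and 21 were shared. Many of the widest ranges came from single cells. Hba-a1, an alpha globin gene, was at 540 CPM in library 3 from 1 cell, and Retnla had 99.1% of its UMIs in 1 cell. Serpinb6b, a serpin protease inhibitor, stood at 811 CPM in library 1 against 6.28 CPM in library 3, or 16.5 and 6.97 CPM in the restricted set. Il4i1, an amino acid oxidase of antigen-presenting cells, was at 311 and 0 CPM, and at 0 in both libraries of the restricted set. The abundant actin regulator Tmsb4x differed less, at 23679 CPM in library 1 against 6773 in library 3.

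Receptor V segments were seen in few cells, as single UMIs for most. A Trbv UMI was found in 13 of 74 CD8 T cells (17.6%), over 7 segments of 35 in the files, and in 15.1% of the other T cells, while 0 of 1190 B cells had one, which allows a share of up to 0.252%. Trbv19 was seen in 4 of the 13 cells (30.8%, 9.09 to 61.4%), 1 in each library, against 4 of 54 other T cells with a Trbv UMI (7.41%, 2.06 to 17.9%). The intervals overlap. A Trav UMI was found in 15 cells (20.3%), over 9 of 128 segments, and in 2 B cells. Trav16n was seen in 6 of the 15 (40.0%, 16.3 to 67.7%) against 9 of 63 other T cells (14.3%, 6.75 to 25.4%), again with overlapping intervals. Trav segments of a family are near-identical copies, so the assignment of reads to Trav16n is uncertain, and no receptor chain was assembled.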

How the data were processed

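The deposited values are whole-number counts of UMIs per gene and barcode, made by the authors with Cell Ranger 6.1.2 and build mm10, per the submitters' processing notes, which name no annotation. Replicates could not be used, because no library number matched a sample label. From the counts, cells were filtered and classed by transcript rules, UMIs were summed per class and library, scaled to CPM and compared as log2 ratios with 10 CPM added, over genes with at least 20 UMIs. B cells had at least 2 UMIs of Cd79a and Cd79b, 0 of Cd3 genes and under 10 of Jchain. Intervals are exact Poisson or Clopper-Pearson at 95%. Thinned shares are exact hypergeometric expectations, and their intervals were computed on the expected count rounded to whole cells. The ratio code was tested on simulated data for CD8 T cells against the other T cells. The simulated cells had the real depths and drew from a shared profile, so cells of a class did not differ among themselves. The changed genes had at least 200 UMIs over both classes. There 100 of 100 genes raised 4-fold and 100 of 100 lowered genes were called. Of 9653 unchanged genes, 0 were called higher and 19 lower. Changed genes near the limit of 20 UMIs, and genes with most UMIs in few cells, were not covered by this test.

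The members and gene lists were chosen with earlier results of these data known. Named genes were the receptor genes and coreceptors, up to 6 of each other list by level, 12 each way per comparison, the 15 most abundant genes and 6 segments per chain; genes that complete a count were named after their values were seen. For 2 genes results are not reported here, and the lists, the naive set and the named genes were computed without them. All 470 named identifiers were found in GENCODE M21 (GRCm38). Tools were Python 3.11.15, numpy 2.4.6, scipy 1.17.1, pandas 2.3.3 and matplotlib 3.10.9.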

Additional observations from a re-analysis of the deposited data

Results flagged for a closer look

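A signal lay in cells that the comparisons did not use. Among filtered cells, 35 had a Cd8a or Cd8b1 UMI but 0 UMIs of the Cd3 genes, 0 of Cd4, under 2 of Cd79a and under 10% from hormone genes, and only 4 of 1190 B cells had a coreceptor UMI. Cd8a was found in 33 of the 35 and stood at 183 CPM, near the 244 CPM of CD8 T cells, while Cd8b1 was found in 5 and stood at 34.9 CPM. Trac was at 0 CPM, Fscn1 was found in 29 cells, and Siglech, a gene of plasmacytoid dendritic cells, stood at 239 CPM. Of the 35 cells, 13 were in library 1, 3 in library 2, 19 in library 3 and 0 in library 4.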

How the results depend on the processing

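No paired analysis was possible because the library numbers match no sample label and no test was run. Of 1170 values under alternative settings, 941 stayed within the stated margins. Genes higher than in the other T cells numbered 77, and 116 with at least 2 coreceptor UMIs, 174 with 1 CPM added and 43 without the cells carrying other markers. Genes lower numbered 510 and 1332 with 1 CPM added. Against B cells 1 CPM gave 730 higher and 1616 lower genes. The genes differing between libraries numbered 46 when CPM was averaged over cells and 36 without the cells carrying other markers. With hormone genes under 2% of UMIs the share of CD8 T cells was 0.019% in library 2 and 0 in library 4. Naive and effector transcripts were found in 87.8% and 66.2% of cells without thinning, and in 46.1% and 30.4% where 2 UMIs were asked for.

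Leaving out each library in turn gave 78 to 177 higher and 505 to 703 lower genes against the other T cells, the 177 without library 3. Against B cells it gave 409 to 593 higher and 515 to 812 lower, the 812 without library 1. Effector shares ran from 35.9% without library 1 to 65.8% without library 3, naive shares from 63.4 to 74.9%, Trbv shares from 13.8 to 23.9% and Trav shares from 16.9 to 22.5%. The range over libraries could not be computed without library 1 or 3 and was 99 genes otherwise. The median of trafficking genes ran from -0.0853 without library 4 to 0.0834 without library 3. Against T cells with Cd4, Cela3b was at 0.3246 and Sycn at 0.66. Without the cells carrying other markers Sycn was at 0.4903, Ifit1bl1 at -0.0866, Retnla's range was 0.1301, and those of Il4i1 and Ccl8 were 0.0. The cause of these changes was not tested. With 74 cells, a gene at 5.71 CPM had 3 UMIs.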
